A study of Mus musculus with 444 samples.

Results

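The genes described here are 9 components of insulin and insulin-like growth factor (IGF) signalling in the mouse mammary epithelium: the adaptors Grb10, Grb14 and Grb7, the receptors Insr and Igf1r, the docking proteins Irs1 and Irs2, and the secreted IGF binding proteins Igfbp2 and Igfbp5. They were chosen by name and found through their Entrez gene identifiers, and all 9 were present among the 25139 genes measured. Single cells sorted from total mammary epithelium of female FVB/NJ mice, an inbred strain, with blood and endothelial cells gated out by surface markers, were captured at puberty (221 cells) and in adulthood (223 cells). No allele, treatment, age, animal, sort or capture run is named in the labels. The study reports several mice per sort and repeated independent experiments, but the labels do not link cells to these. Each stage therefore stood as 1 sample of cells, no comparison below has a replicate check, and no test was made. Cells with at least 100000 read pairs and 1500 genes were retained, which left 171 pubertal and 152 adult cells.

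Insulin and the IGFs act through the related receptor tyrosine kinases Insr and Igf1r, which phosphorylate the docking proteins Irs1 and Irs2 and thereby engage phosphatidylinositol 3-kinase (PI3K) and AKT. Grb10, Grb14 and Grb7 form a family of adaptors with an SH2 domain. Grb10 and Grb14 bind the activated receptors and restrain their signalling, and Grb7 is known as a partner of several growth factor receptors. IGF binding proteins hold IGFs outside the cell and alter their access to the receptor, and stromal IGF1 is known to be needed for the growth of mammary ducts at puberty.

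Both Grb10 and Grb14 were read in more pubertal than adult cells, and for that reason their promoter sequences are shown here. Promoters of 7 of the 9 genes were found in RefSeq on GRCm38.p6, the assembly also called mm10, as 250 bases before and 50 bases after a transcription start. Grb10 lies on chromosome 11 from 11930499 to 12037428 and Grb14 on chromosome 2 from 64912476 to 65022766. Grb10 has 2 starts in this set, at chr11:12037371-12037670 and chr11:12027922-12028221, and Grb14 has 1 at chr2:65022717-65023016, all on the minus strand. Capitals mark the GC box, searched as GGGCGG and, on the other strand, CCGCCC. The sequences run 5′ to 3′ along the gene.
Grb10, upstream start: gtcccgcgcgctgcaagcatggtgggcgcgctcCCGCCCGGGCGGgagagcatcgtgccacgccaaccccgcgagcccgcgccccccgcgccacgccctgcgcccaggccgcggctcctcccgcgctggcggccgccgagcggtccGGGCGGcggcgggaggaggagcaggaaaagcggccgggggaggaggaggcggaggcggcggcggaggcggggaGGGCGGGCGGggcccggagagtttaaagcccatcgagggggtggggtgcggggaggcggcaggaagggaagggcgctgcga
Grb10, downstream start: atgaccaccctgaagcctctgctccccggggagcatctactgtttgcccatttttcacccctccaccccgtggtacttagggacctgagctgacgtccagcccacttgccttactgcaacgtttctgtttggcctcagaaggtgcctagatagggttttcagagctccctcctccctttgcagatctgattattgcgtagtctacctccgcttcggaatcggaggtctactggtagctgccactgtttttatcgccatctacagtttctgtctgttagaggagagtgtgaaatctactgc
Grb14: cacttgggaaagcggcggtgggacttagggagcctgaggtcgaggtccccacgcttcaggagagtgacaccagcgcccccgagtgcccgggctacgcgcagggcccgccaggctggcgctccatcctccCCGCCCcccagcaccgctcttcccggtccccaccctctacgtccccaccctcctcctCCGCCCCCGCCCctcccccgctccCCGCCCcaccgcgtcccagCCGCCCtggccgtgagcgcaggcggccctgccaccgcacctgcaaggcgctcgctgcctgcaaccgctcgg
The upstream Grb10 promoter held 5 GC boxes, a pair of which overlap, and the Grb14 promoter also held 5. The downstream Grb10 promoter held 0. GC content was 80% and 75.3% in the first and the last of these windows and 52.3% in the downstream Grb10 window. A GC box was present in 35.7% of all 32851 promoters of this length. Neither gene's windows held a CCAAT box (CCAAT or ATTGG, in 37.4% of all promoters) or a forkhead core (TGTTTAC or GTAAACA, in 3.65%). These matches describe letters and not sites in use, and the counts do not tell the 2 Grb10 starts apart because they are sums over the gene.

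Levels are given as CPM, a gene's count scaled to the total of its cell. Every retained cell was first drawn down at random to 100000 read pairs, so that 1 read in a cell is worth 10 CPM, and the CPM of a group is the mean over its cells. Intervals in parentheses are exact 95% intervals for counting error only, and since the protocol has no molecular identifiers they do not cover copies made during amplification. A log2 ratio compares the CPM of 2 groups with 1 CPM added to each. Total read pairs ranged from 2 to 1456360 per pubertal and from 1 to 1167991 per adult cell. The adult cells numbered 48 to 188 in their titles (107 retained) stood apart from the other 45. The small nuclear RNA Rn7sk was read in all 107 and in 8 of the others. Stage values of each gene described here are therefore given against both sets. Pubertal cells numbered 1 to 144 (126 retained) and 145 to 221 (45 retained) also differed in several of the genes described here.

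The luminal keratins Krt8 and Krt18 summed to a median of 4330 CPM per pubertal and 2400 CPM per adult cell. Cells were placed in classes from lists of lineage markers, as basal-like, luminal progenitor-like or mature luminal-like. The 3 classes held 49, 28 and 94 pubertal cells and 77, 40 and 35 adult cells, in that order. Basal and luminal scores lay within 0.5 of each other on the log2 scale in 25 cells. Of cell types outside the epithelium, fibroblast markers (8 genes) summed to between 0 and 36890 CPM per pubertal cell and between 0 and 27340 CPM per adult cell, with a median of 10 CPM in both stages. Endothelial markers (6 genes) summed to between 0 and 5820 CPM at puberty and between 0 and 2590 CPM in adults, with medians of 0. No marker of either list was at 0 in either stage. A total of 42 cells (25 pubertal and 17 adult) carried 3 or more fibroblast or 2 or more endothelial markers. The stage ratio of each gene described here is given with and without these cells. Immune markers (7 genes) summed to at most 130 CPM per pubertal and 4510 CPM per adult cell, with Ptprc and Tyrobp at 0 at puberty and Ptprc, Cd52 and Cd3e at 0 in adults. Adipocyte markers (6 genes) reached 31070 and 34670 CPM, with Plin1 at 0 in both stages and Adipoq at 0 in adults, and erythroid markers (4 genes) reached 57510 and 760 CPM with none at 0. The medians of these 3 lists were 0, and their part in the results was not tested.

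Grb10 and Grb14 were the members higher by 2-fold or more at puberty, and Irs1 was the one lower by 2-fold or more. Of all 7826 genes that reached 20 CPM in a stage, 19.2% were 2-fold or more higher at puberty and 14.6% were 2-fold or more lower, and 8 of the 9 members reached that level. The median log2 ratio of those 8 was -0.29, beside 0.09 for all 7826 genes. Across all 9 members the median was -0.28. The counts for the members were therefore near these shares.

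The set of cells used altered these counts, mostly for the genes that were lower. Against adult cells 48 to 188 alone, 2 members were higher and 0 lower (25.6% and 15.7% of all genes). Against the other adult cells 2 were higher and 1 lower (28% and 20.4%). With pubertal cells 1 to 144 alone, 2 were higher and 2 lower (20.1% and 17.8%), and with pubertal cells 145 to 221 alone 2 were higher and 3 lower (23% and 20.8%). Without the cells that carried fibroblast or endothelial markers, 2 were higher and 1 lower (20.5% and 16%). In basal-like cells alone 2 were higher and 1 lower (28.2% and 20.2%), and in luminal-like cells, meaning both luminal classes together, also 2 and 1 (23.8% and 19.2%). Luminal progenitor-like cells had 2 higher and 3 lower (31.4% and 28.4%) and mature luminal-like cells 3 higher and 1 lower (30.5% and 21.3%). All these counts are of members that reached 20 CPM. Grb10 and Grb14 made up the higher pair in every set except mature luminal-like cells, where Grb14, Grb7 and Igf1r were higher. In luminal progenitor-like cells the lower members were Grb7, Insr and Igfbp2, of which Grb7 had reads in 1 adult cell alone and Igfbp2 came to -0.86 without the highest adult cell. In mature luminal-like cells the Grb7 ratio was 0.22 without the highest pubertal cell, and the Irs1 ratio went from -4.01 to -0.48 without the highest adult cell. Igf1r had a higher average in this class at puberty (57.8 and 18.9 CPM) but was read in a smaller share of its cells (35.1% and 45.7%). The study placed Grb10, Grb14 and Gsk3b, a kinase described further on, in networks of genes raised at puberty in these same cells, so their direction here is no independent evidence.

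**Figure D1:**
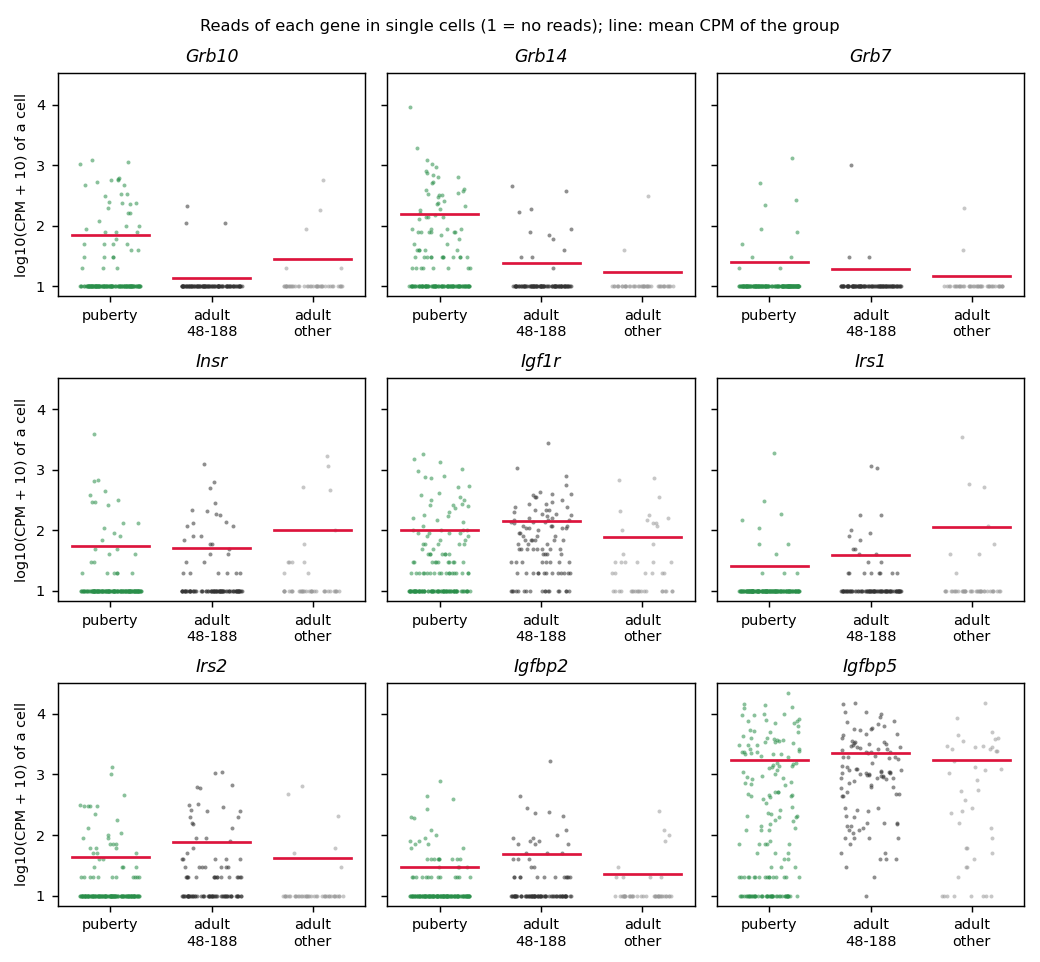
Level of each gene in every retained cell, as log10(CPM + 10) of thinned counts, in 171 pubertal cells, 107 adult cells numbered 48 to 188 and the other 45 adult cells. Each point is a cell, the value 1 stands for no reads, and the red line is the mean CPM of the group placed on the same scale. Grb10 and Grb14 have many more pubertal cells above the base line, whereas Igfbp5 is spread over a wide range in all groups.

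Grb10, which binds the insulin and IGF receptors, was read in 41 of 171 pubertal cells, or 24.0% (17.8 to 31.1%). In adults it was read in 8 of 152 cells, or 5.26% (2.30 to 10.1%). The cell values ran from 0 to 1230 CPM at puberty and from 0 to 550 CPM in adults, with a median of 0 in both, and the cells with reads had medians of 110 and 100 CPM. The adult range therefore lay within the pubertal one, and the stages differed in how many cells had reads. Medians of the cells with reads were close. The adult one rests on 8 cells, of which 1 held 45.1% of the adult reads, too few to compare levels. Grb10 averaged 61.3 CPM (57.6 to 65.1) at puberty and 8.03 CPM (6.67 to 9.58) in adults, a log2 ratio of 2.79 (2.54 to 3.04). It was 3.72 against adult cells 48 to 188, where 3 of 107 cells had reads, and 1.70 against the other adult cells, where 5 of 45 did. The ranges of pubertal cells differed little, with Grb10 in 25.4% of cells 1 to 144 and in 20.0% of cells 145 to 221.

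By class, Grb10 was read in 30.6% of pubertal and 3.90% of adult basal-like cells, at 85.5 and 4.03 CPM. In luminal progenitor-like cells it was read in 7 of 28 pubertal cells and in 0 of 40 adult cells, which allows a share of up to 7.50% when 3 counts are set for the 0 (exact upper limit 8.81%). Before thinning, 1 of these 40 cells had reads. Its 73.2 CPM in the pubertal luminal progenitor-like cells was at least 97.6-fold higher than 3 reads over the adult cells of that class would give, but 1 cell held 55.6% of those pubertal reads and without it the bound was 44.9-fold. Mature luminal-like cells differed less by their averages, with 45.1 CPM at puberty and 26.0 CPM in adults and a log2 ratio of 0.77 (0.45 to 1.10). A single cell held 60.4% of the adult reads in this class, so the adult average and the smaller ratio rest largely on that cell. The shares of that class, 20.2% (12.6 to 29.8%) and 14.3% (4.81 to 30.3%), were not distinguishable by counting error. Most of the adult reads in this class came from the cells outside the range 48 to 188, where 4 of 23 mature luminal-like cells had reads.

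Reads of Grb10 also moved with markers of non-epithelial cells. Of the 25 pubertal cells with fibroblast or endothelial markers, 14 had Grb10 reads (56.0%, 34.9 to 75.6%), against 27 of the other 146 (18.5%, 12.6 to 25.8%). They held 37.7% of the pubertal Grb10 reads, and the 17 such adult cells held 73.8% of the adult ones. Without these cells Grb10 averaged 44.7 CPM at puberty and 2.37 CPM in adults, a log2 ratio of 3.76 (3.38 to 4.14), which is larger than with them. Across the 323 cells, the genes whose log2(CPM + 10) was most correlated with Grb10 were Tek (r = 0.45), which encodes the angiopoietin receptor of endothelial cells, Calcrl (r = 0.43), a receptor subunit for adrenomedullin, and Cd34 (r = 0.39), a surface protein of endothelial and stromal cells. Endothelial cells should have been removed by the sort, and the part of non-epithelial cells in the Grb10 reads was not tested beyond these values. Those points share libraries and sparse counts, and the r values are given as a description of these cells.

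Grb14, an inhibitor of the insulin receptor, was read in 71 of 171 pubertal cells, or 41.5% (34.0 to 49.3%), and in 14 of 152 adult cells, or 9.21% (5.13 to 15.0%). Cell values ran from 0 to 9220 CPM at puberty and from 0 to 450 CPM in adults, again with medians of 0. The averages were 145.8 CPM (140.1 to 151.6) and 12.0 CPM (10.4 to 13.9), and the log2 ratio was 3.49 (3.29 to 3.70). A single pubertal cell held 37.0% of the pubertal reads. With the highest cell of each stage left out, both Grb10 and Grb14 stayed above 2-fold, as they did in all 13 alternatives. Grb14 was low in both adult sets, at 14.0 CPM in cells 48 to 188 and 7.33 CPM in the others. Among pubertal cells its share was 43.7% in cells 1 to 144 and 35.6% in cells 145 to 221.

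Grb14 reads were most frequent in mature luminal-like cells at puberty, whereas the shares of the adult classes could not be told apart. At puberty 53 of 94 mature luminal-like cells had reads (56.4%, 45.8 to 66.6%), compared with 26.5% (14.9 to 41.1%) of basal-like and 17.9% (6.06 to 36.9%) of luminal progenitor-like cells. The adult shares were 5.71% (0.70 to 19.2%), 11.7% (5.49 to 21.0%) and 7.50% (1.57 to 20.4%), respectively, and were not distinguishable by counting error. Before thinning they were 11.4%, 14.3% and 7.50%. By average, mature luminal-like cells were the highest in adults, at 21.4 CPM against 9.48 and 8.75 CPM, with 60.0% of their reads in 1 cell. Mature luminal-like cells made up 55.0% of pubertal and 23.0% of adult cells. Within classes the stage log2 ratio was 1.85 in basal-like, 5.21 in luminal progenitor-like and 2.64 in mature luminal-like cells. The luminal progenitor-like value rests on 1 cell, which held 91.5% of that class's pubertal reads, and was 1.75 without it. In basal-like cells it was 0.88, under 2-fold, without the highest pubertal cell. Basal-like cells at puberty had 36.7 CPM and luminal-like cells had 189.6 CPM, a log2 ratio of -2.34. In adults the class difference was -0.58 (-0.99 to -0.18). Cells with fibroblast or endothelial markers had Grb14 reads as often as the others (44.0% and 41.1%) at puberty but held 42.2% of the reads, and without them the stage ratio was 2.83. The genes most correlated with Grb14 were Cited1 (r = 0.40), a transcriptional co-regulator and mature luminal marker, Il33 (r = 0.40), a cytokine of the interleukin family, and Upk3a (r = 0.40), an uroplakin. Within puberty these were 0.40, 0.34 and 0.35 and within adults 0.18, -0.02 and -0.04, so the values over all cells also carry the difference between stages.

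Grb7, whose gene overlaps the coding gene Mien1 on chromosome 11, was rare. It was read in 11 pubertal cells (6.43%) and in 5 adult cells (3.29%), at 14.8 and 8.22 CPM, and a single cell held 52.2% of the pubertal and 79.2% of the adult reads. Its log2 ratio of 0.78 (0.49 to 1.07) therefore describes very few cells. The ratio was 0.57 against adult cells 48 to 188, 1.42 against the others and 0.76 without the cells carrying fibroblast or endothelial markers. Since the use of strand in counting was not stated, reads shared with Mien1 cannot be told apart. The same holds for long non-coding RNA genes, of which 1 overlaps Grb10, 2 overlap Igf1r and 1 overlaps Irs2.

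Cell by cell, 103 of 171 pubertal cells had reads of at least 1 of the 3 adaptors (60.2%, 52.5 to 67.6%). The adult number was 27 of 152 (17.8%, 12.0 to 24.8%). That share was 16.8% in cells 48 to 188 and 20.0% in the others. More than 1 adaptor was read in 20 pubertal cells and in 0 adult cells, which allows an adult share of up to 1.97% by 3 counts (exact upper limit 2.40%). Grb10 and Grb14 were not tied to each other at puberty. Grb14 reads were found in 15 of the 41 cells with Grb10 (36.6%, 22.1 to 53.1%) and in 43.1% (34.4 to 52.0%) of those without. A receptor gene (Igf1r or Insr) together with an adaptor was read in 34.5% of pubertal and 15.1% of adult cells. Such joint shares depend on the share of each gene alone. The values expected from the single shares were not computed, so these numbers show no stage difference in joint reading.

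**Figure D2:**
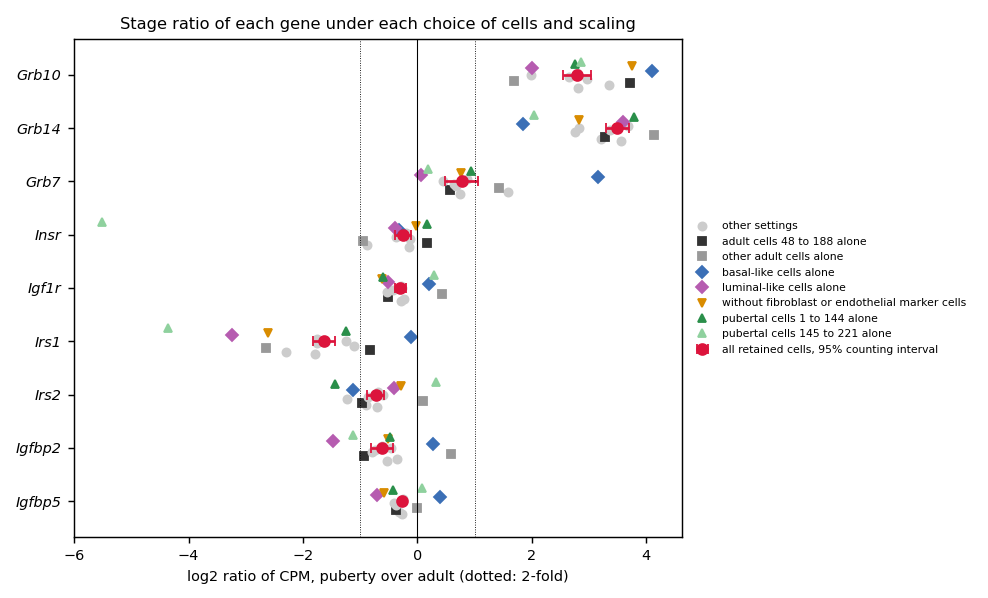
Log2 ratio of CPM, puberty over adult, for each gene. The red point with its bar is the value over all retained cells with the 95% counting interval, the other symbols are single changes in the cells used or the scaling, and dotted lines mark 2-fold. Grb10 and Grb14 lie beyond 2-fold in all alternatives, Insr drops to -5.52 with pubertal cells 145 to 221 alone, and the other genes stay closer to 0 or spread widely (Irs1, -4.37 to -0.10).

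The receptors did not share the pattern of the adaptors. Igf1r, the IGF receptor, was read in 48.5% (40.8 to 56.3%) of pubertal and 75.0% (67.3 to 81.7%) of adult cells. Its averages were closer, at 92.5 CPM (88.0 to 97.1) and 114.1 CPM (108.8 to 119.6), with a log2 ratio of -0.30. Without the cells carrying fibroblast or endothelial markers, which held 34.4% of the pubertal reads, the ratio was -0.62. Cell values ran from 0 to 1830 CPM (median 0) at puberty and from 0 to 2730 CPM (median 35) in adults. The direction depended on the adult set, since Igf1r stood at 133.2 CPM and in 83.2% of cells 48 to 188 but at 68.7 CPM and in 55.6% of the others, so that the ratio was -0.52 against the former and 0.42 against the latter. Pubertal cells also differed among themselves, with reads in 41.3% of cells 1 to 144 and in 68.9% of cells 145 to 221.

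Igf1r was lowest in mature luminal-like cells at both stages. At puberty it averaged 141.6 CPM in basal-like, 122.9 CPM in luminal progenitor-like and 57.8 CPM in mature luminal-like cells, and in adults 123.5, 179.3 and 18.9 CPM. The luminal progenitor-like values owe 53.2% and 38.1% of their reads to 1 cell each. Reads were found in 69.4%, 57.1% and 35.1% of the pubertal cells of these classes and in 85.7%, 80.0% and 45.7% of the adult cells. Acta2, the smooth muscle actin of basal cells, was read in 41.5% of pubertal and 68.6% of adult mature luminal-like cells at the thinned depth. Its level there was 4.43% and 2.43% of that in basal-like cells. Acta2 is on the basal marker list that set the classes. Its level in mature luminal-like cells is thus low in part by selection and cannot gauge reads from other cell types. The level of Igf1r in mature luminal-like cells was 40.8% and 15.3% of its basal-like level. The retained cells had medians of 309943 and 331052 read pairs before thinning. Of all genes, Cald1, Sparc and Acta2 followed Igf1r most closely (r = 0.45, 0.45 and 0.43), which encode an actin-binding protein, a matrix protein and the actin named above.

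Insr, the insulin receptor, was read in 27 pubertal cells (15.8%, 10.7 to 22.1%) and 40 adult cells (26.3%, 19.5 to 34.1%). Its averages were 46.1 and 55.1 CPM, but 1 pubertal cell at 3850 CPM held 48.9% of the pubertal reads. The stage log2 ratio of -0.25 was 0.18 against adult cells 48 to 188 (40.7 CPM) and -0.94 against the others (89.6 CPM). Without the cells carrying fibroblast or endothelial markers it was -0.02. Insr was nearly confined to pubertal cells 1 to 144: 26 of those 126 cells had reads (20.6%, 13.9 to 28.8%), against 1 read in 1 of the 45 cells numbered 145 to 221 (2.22%, 0.06 to 11.8%). Mature luminal-like cells had the highest average at both stages, 65.0 CPM at puberty and 113.7 CPM in adults. Insr stood at 0.71 and 24.0 CPM in luminal progenitor-like cells and at 35.7 and 44.7 CPM in basal-like cells. That lead depended on the cells used. At puberty the cell with the highest value held 63.0% of the mature luminal-like reads. Without the highest basal-like and the highest luminal-like cell, the log2 ratio of basal-like over luminal-like cells went from -0.48 to 0.26. In adult cells 48 to 188, mature luminal-like cells were at 46.7 CPM and basal-like cells at 46.4 CPM. In the other adult cells they were at 148.7 and 38.1 CPM. Correlations with Insr were weak, the highest being with Edc4 (r = 0.34), Cep63 (r = 0.30) and Pcgf6 (r = 0.28).

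The docking proteins were read in fewer pubertal than adult cells. Irs2 was read in 24.0% (17.8 to 31.1%) of pubertal and 36.2% (28.6 to 44.4%) of adult cells, at 33.7 CPM (31.0 to 36.6) and 56.5 CPM (52.8 to 60.4), with cell values from 0 to 1310 and from 0 to 1100 CPM. The log2 ratio was -0.73 (-0.88 to -0.58), and -0.28 (-0.45 to -0.11) without the cells carrying fibroblast or endothelial markers. It was -0.97 against adult cells 48 to 188 and 0.09 (-0.17 to 0.36) against the others. The stage difference was thus not uniform over the numbered ranges. Reads were found in 17 of 126 pubertal cells numbered 1 to 144 (13.5%, 8.06 to 20.7%) and in 24 of 45 cells numbered 145 to 221 (53.3%, 37.9 to 68.3%). Among adult cells, 49 of the 107 numbered 48 to 188 had reads (45.8%) and 6 of the 45 others did (13.3%). The share was thus high in 1 range of each stage and low in the other, and the stage ratio was -1.43 with pubertal cells 1 to 144 and 0.33 with cells 145 to 221. Labels do not say what the cell numbers stand for, and stage and capture cannot be told apart here.

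Irs2 was also read less often in mature luminal-like cells, in 12.8% at puberty and 14.3% in adults, than in basal-like cells (36.7% and 46.8%) or luminal progenitor-like cells (39.3% and 35.0%). The make-up of the numbered ranges differed, with mature luminal-like cells forming 61.9% of pubertal cells 1 to 144 and 35.6% of cells 145 to 221, and its part in the difference was not tested. The closest genes to Irs2 were Pxdc1 (r = 0.39), Celf2 (r = 0.35), which encodes an RNA-binding protein, and Cntn1 (r = 0.32), a cell adhesion molecule.

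**Figure D3:**
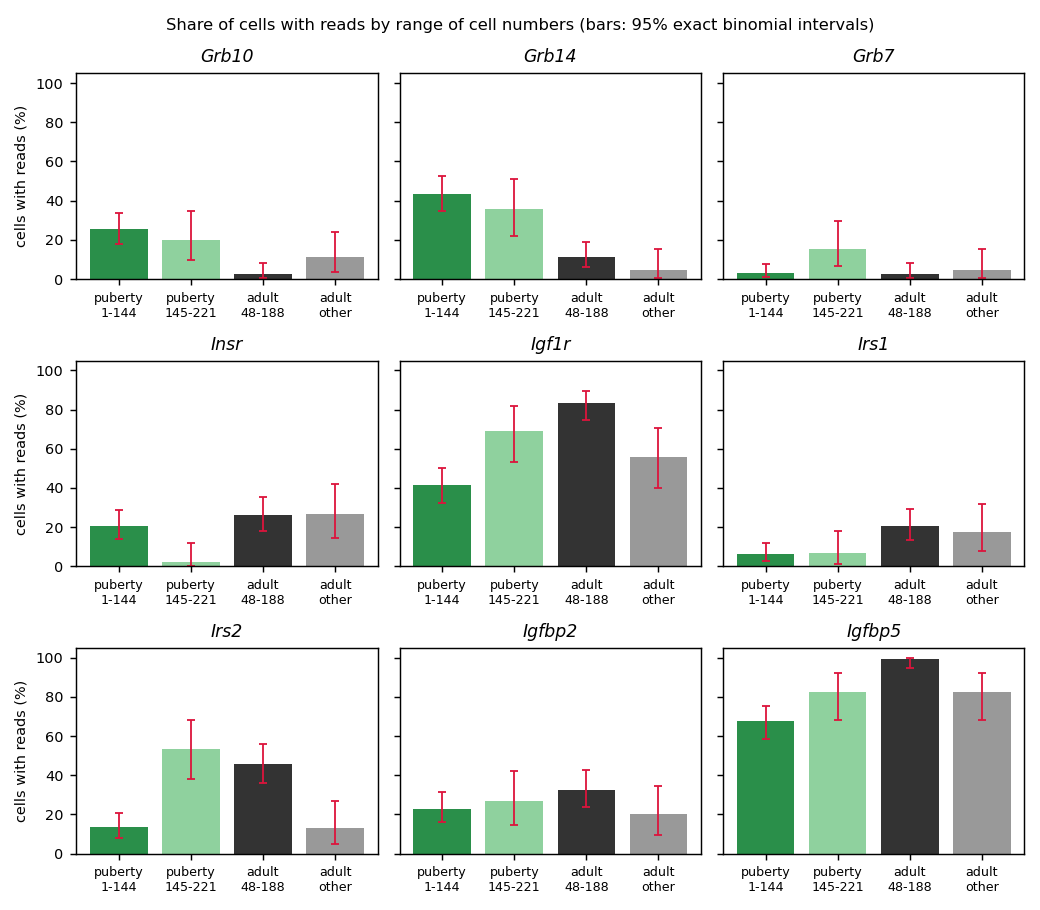
Percent of retained cells with at least 1 read of each gene at the thinned depth, in pubertal cells 1 to 144 and 145 to 221, adult cells 48 to 188 and the other adult cells. Bars with red lines give the share and its exact 95% binomial interval. Irs2 is high in pubertal cells 145 to 221 (53.3%) and adult cells 48 to 188 (45.8%) and low in the other ranges, Insr is nearly missing from pubertal cells 145 to 221, and Grb10 and Grb14 are higher in both pubertal ranges than in both adult ranges.

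Irs1 was read in 11 pubertal cells (6.43%, 3.25 to 11.2%) and 30 adult cells (19.7%, 13.7 to 27.0%), at 16.0 and 51.8 CPM and with a log2 ratio of -1.63 (-1.83 to -1.44). A pubertal cell at 1860 CPM held 67.9% of the pubertal reads, and an adult cell at 3430 CPM held 43.5% of the adult ones. The adult shares were close between the sets, with 20.6% of cells 48 to 188 and 17.8% of the others. The averages did not, at 29.2 and 105.8 CPM, and against cells 48 to 188 the ratio was -0.83, under 2-fold. Cells with fibroblast or endothelial markers held 80.3% of the pubertal and 52.3% of the adult reads. Without them Irs1 averaged 3.70 and 27.9 CPM, a ratio of -2.62. Its closest genes were Tmem65 (r = 0.31), Nr3c1 (r = 0.29), the glucocorticoid receptor, and Ltbp4 (r = 0.28), a latent TGF-beta binding protein. Either docking protein was read in 29.8% of cells at puberty and 46.7% in adults, and either one together with a receptor gene in 21.1% and 40.8%. The joint shares were again not set against those expected from each gene alone.

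Igfbp5 was by far the most abundant member. Per kilobase of exon, which allows levels of different genes to be compared, it stood at 291.8 CPM at puberty, followed by Grb14 at 74.1, Igfbp2 at 14.7, Grb10 at 11.9, Irs2 at 8.40, Igf1r at 7.72, Grb7 at 6.17, Insr at 4.93 and Irs1 at 1.75. In adults Igfbp5 stood at 353.5 CPM per kilobase and Igfbp2, next in order, at 23.0, whereas Grb14 was at 6.12 and Grb10 at 1.56. Unscaled, Igfbp5 averaged 1708 CPM at puberty and 2069 CPM in adults, a log2 ratio of -0.28, and was read in 71.3% (63.9 to 78.0%) and 94.1% (89.1 to 97.3%) of cells. Its cell values ran from 0 to 22500 CPM with a median of 140 at puberty and from 0 to 15450 CPM with a median of 1020 in adults. Against the adult cells outside 48 to 188 the averages were equal within counting error, at 1708 CPM each and a ratio of 0.00 (-0.04 to 0.04). Against cells 48 to 188 the ratio was -0.38, and without the cells carrying fibroblast or endothelial markers it was -0.59.

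Igfbp5 had the same order of classes at both stages. Luminal progenitor-like cells were highest (4126 CPM at puberty, 3589 in adults), followed by basal-like (2275 and 1721) and mature luminal-like cells (692 and 1098). All 28 pubertal and 40 adult luminal progenitor-like cells had reads, compared with 51.1% and 74.3% of the mature luminal-like cells. The cell medians keep that order, with 3240, 1370 and 10 CPM at puberty and 2480, 1040 and 40 CPM in adults, although 1 cell held 34.6% and 40.2% of the mature luminal-like reads at the 2 stages. The genes closest to Igfbp5 had the highest correlations of any member: Lcn2 (r = 0.64), Trf (r = 0.53) and Cst3 (r = 0.52), which encode lipocalin, the iron carrier transferrin and the protease inhibitor cystatin C. Lcn2 and Trf belong to the list of luminal progenitor markers that set the classes.

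Igfbp2, which lies 5591 bases from Igfbp5 on chromosome 1 (72824480 to 72852474 on the plus strand, with Igfbp5 at 72858065 to 72874865 on the minus strand), had another pattern. It was read in 24.0% of pubertal and 28.9% of adult cells, at 19.6 and 30.6 CPM. The cells ranged from 0 to 780 and from 0 to 1680 CPM, and the highest adult cell held 36.1% of the adult reads. The stage log2 ratio was -0.62. It was -0.93 against adult cells 48 to 188, 0.59 against the others and -0.51 without the cells carrying fibroblast or endothelial markers. The class difference was much larger. Basal-like cells had 59.8 CPM at puberty and luminal-like cells 3.44 CPM, a log2 ratio of 3.77 (3.39 to 4.16). In adults they had 49.4 and 11.3 CPM, a ratio of 2.03 (1.71 to 2.36). The shares with reads were 44.9% and 15.6% at puberty and 44.2% and 13.3% in adults. The ratio stayed above 2-fold under every alternative, between 2.38 and 4.44 at puberty and between 1.48 and 4.74 in adults. Acta2 (r = 0.45) and the basement membrane collagens Col4a1 (r = 0.45) and Col4a2 (r = 0.44) followed it most closely.

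Between basal-like and luminal-like cells at puberty, 2 members were 2-fold or more higher in basal-like cells (Irs1 and Igfbp2) and 2 were 2-fold or more lower (Grb14 and, below 20 CPM, Grb7). The Grb7 ratio of -1.05 was 0.20 without the highest luminal-like cell. Of the 8 members that reached 20 CPM in one of the classes, 2 were higher and 1 was lower. Of all 7904 genes that did, 21% were higher and 23.5% lower by that measure. In adults 6 members reached 20 CPM, of which 1 was higher (Igfbp2) and 0 were lower. Of all 7592 genes that reached 20 CPM there, 23.5% were higher and 28.4% lower. Grb10 and Grb7 were 2-fold or more lower but stood below 20 CPM, so these shares do not apply to them. Grb7 had 0 reads in the 77 adult basal-like cells and was at least 42.8-fold lower there than in luminal-like cells, counting 3 reads for the 0. A single cell held 79.2% of those luminal-like reads, and without it the bound was 9.02-fold. The adult Grb10 ratio of -1.39 did not keep its direction and was 0.90 in cells 48 to 188 alone and 2.27 without the cells that carried fibroblast or endothelial markers. The Irs1 ratio of 2.84 rests on 1 basal-like cell with 88.2% of the class's reads, and it was -1.14 without the cells that carried fibroblast or endothelial markers. Between the luminal classes, Igf1r, Irs2, Grb14 and Igfbp5 were 2-fold or more higher in luminal progenitor-like cells at puberty and Grb7 and Insr were lower, against 23.2% and 32.1% of all genes. In adults Grb7, Igf1r, Igfbp2 and Igfbp5 were higher and Grb10, Grb14, Insr and Irs1 were lower, against 29.4% and 32% of all genes. Several of these ratios rest on 1 cell. At puberty the Grb14 ratio of 1.37 turned to -2.09 without the highest luminal progenitor-like cell, and the ratios of Igf1r (1.08) and Irs2 (1.25) came to 0.05 and 0.17. In adults the Grb7 ratio of 1.61 turned to -3.08 without the same kind of cell. Without the highest adult mature luminal-like cell, Irs1 turned from -2.74 to 0.79 and Grb14 went from -1.20 to -0.01. The Igfbp5 ratios (2.57 and 1.71) and the Insr ratios (-5.27 and -2.20) stayed past 2-fold in the same direction with the highest cell of either class or of both left out.

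**Figure D4:**
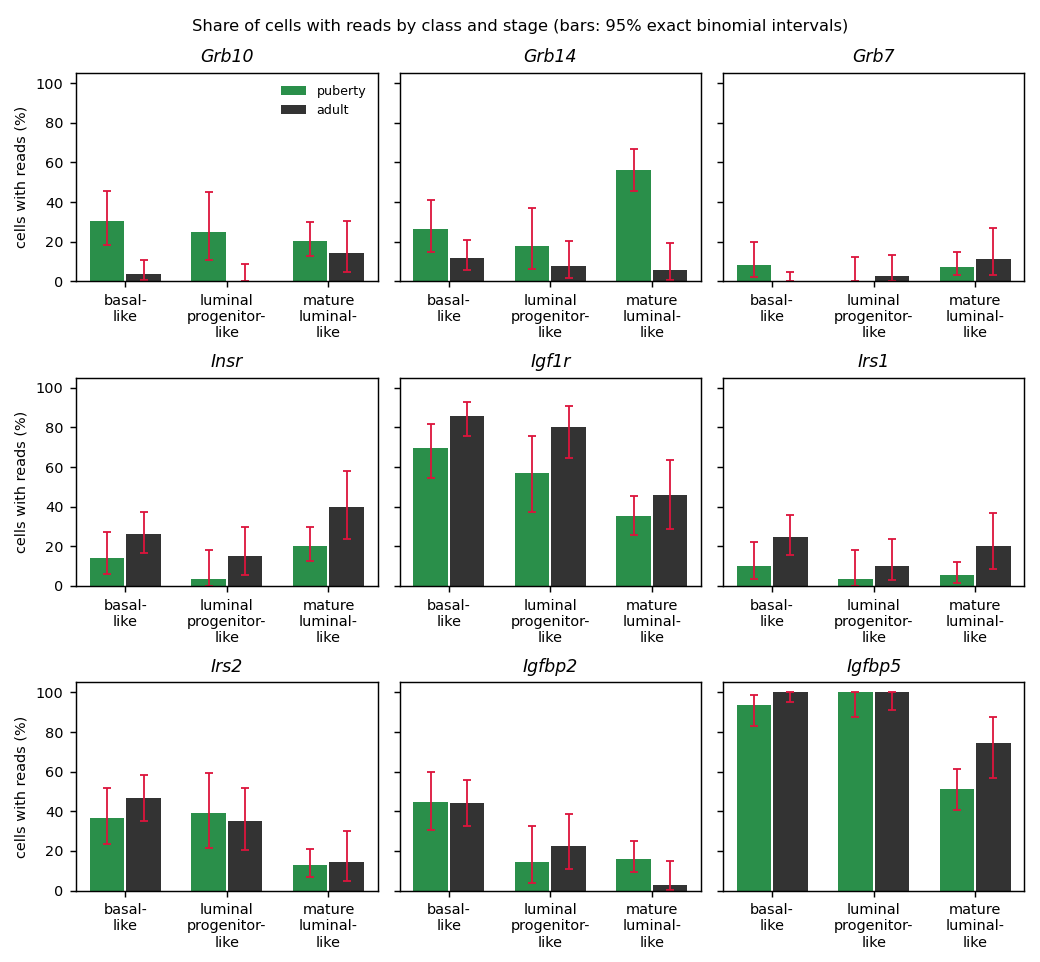
Percent of cells with at least 1 read of each gene at the thinned depth, by class and stage. Green columns are pubertal and dark columns adult cells, and red lines are exact 95% binomial intervals. Grb14 is read in 56.4% of pubertal mature luminal-like cells and in 5.71% of adult ones, Igfbp2 is most frequent in basal-like cells of both stages, and Igf1r, Irs2 and Igfbp5 are lowest in mature luminal-like cells.

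The wider pathway was covered by 52 further genes, of which 30 reached 20 CPM in a stage. Of those 30, 5 were 2-fold or more higher at puberty and 7 were 2-fold or more lower, beside the shares of 19.2% and 14.6% for all genes. Their median log2 ratio was 0.19. Ligands were close to missing from these cells. Ins2 was at 0 in both stages, and Igf1 was read in 2 pubertal and 4 adult cells, at 0.58 and 21.1 CPM, with 1 cell holding 64.8% of the adult reads (log2 ratio -3.80, and 0.54 against adult cells 48 to 188). Of the 6 cells with Igf1 reads, 4 carried 3 or more fibroblast markers, and these 4 held 36.9% of the Igf1 reads. Igf2r, the receptor that clears IGF2, was at 13.3 and 33.5 CPM (log2 ratio -1.27), and 55.8% of the adult reads came from 1 cell.

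Among the binding proteins and proteases Pappa, a protease that cleaves IGF binding proteins, was higher at puberty at 91.1 CPM against 41.0 CPM in adults (1.13, 1.00 to 1.27). It was read in 39.2% of pubertal cells, 38.3% of adult cells 48 to 188 and 6.67% of the other adult cells. In the PI3K-AKT branch, 13 of 19 genes reached 20 CPM, of which 4 were higher and 2 lower at puberty. The shares over all genes that reached this level were 19.2% and 14.6%. Gsk3b, a kinase inhibited by AKT, was read in nearly every cell and averaged 799 CPM at puberty and 351 CPM in adults (1.18, 1.14 to 1.23), with cell medians of 600 and 145 CPM. It was 386 CPM in adult cells 48 to 188 and 267 CPM in the others. Tsc1 and Tsc2, which restrain mTOR, had ratios of 1.15 and 1.02, and Pik3r3, a PI3K regulatory subunit, had 1.05, each near the 2-fold limit. Without the cells carrying fibroblast or endothelial markers Tsc1 and Tsc2 stood at 0.95 and 0.46, and against the adult cells outside 48 to 188 Pik3r3 stood at 0.04.

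Foxo1, a transcription factor that AKT excludes from the nucleus, was lower at puberty, at 57.9 CPM against 153.2 CPM (-1.39, -1.50 to -1.28). It was read in 33.3% of pubertal cells, 70.1% of adult cells 48 to 188 and 28.9% of the other adult cells, against which the ratio was -0.89. Mtor (-1.29) was lower too, as was Shc1 (-1.29), an adaptor of the RAS branch, although the adult reads of Shc1 came mostly from the cells outside 48 to 188, where 1 cell held 56.4%, and the Shc1 ratio against cells 48 to 188 was 0.02. The negative regulators Socs2 and Socs3, feedback inhibitors of cytokine receptors, were at 21.2 and 1.87 CPM at puberty and at 87.1 and 54.7 CPM in adults. Socs2 was read in 21.6% of pubertal and 42.8% of adult cells (log2 ratio -1.99), and Socs3 in 2.34% and 11.8% (-4.28), with 1 cell holding 38.5% of the adult Socs3 reads. Lower Grb adaptor reads in adult cells thus stood beside higher Socs2 and Socs3 reads in the same comparison.

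**Figure D5:**
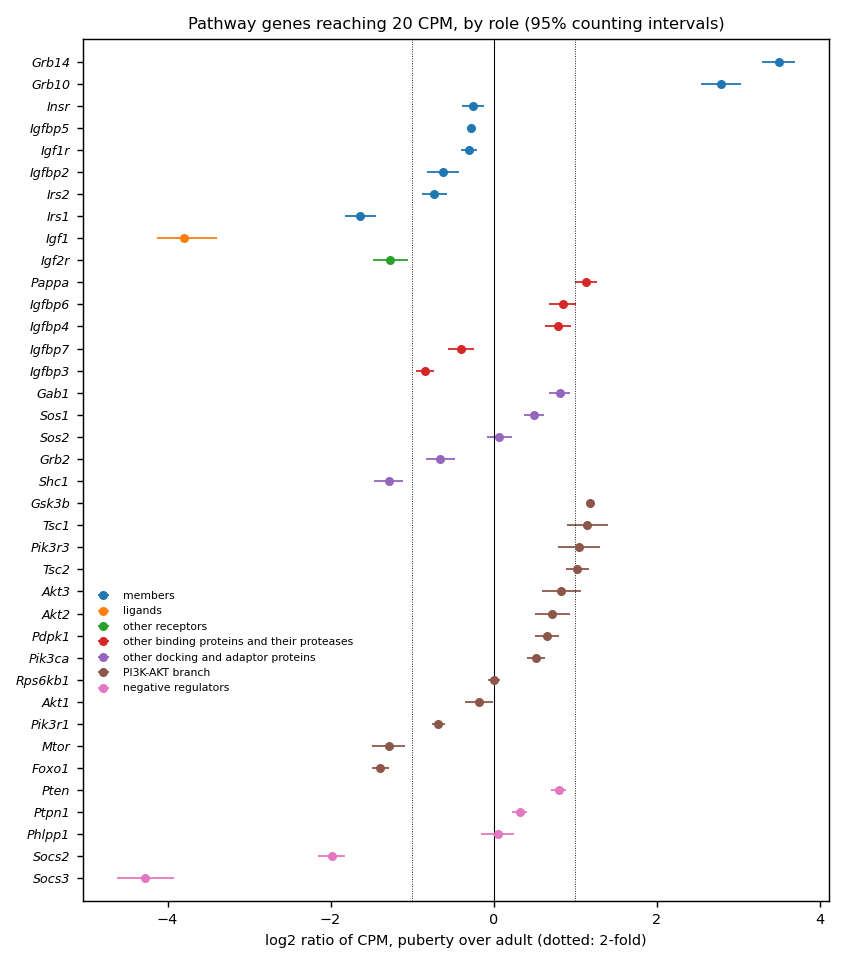
Log2 ratio of CPM, puberty over adult, for the 8 members and 30 other pathway genes that reached 20 CPM in a stage, grouped by role. Points are ratios, horizontal lines are 95% counting intervals and dotted lines mark 2-fold. Grb14 (3.49) and Grb10 (2.79) are the highest and Socs3 (-4.28) is the lowest.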

How the data were processed

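Transcriptomes of single FVB/NJ mammary epithelial cells were captured on the Fluidigm C1 and sequenced from Nextera XT libraries. The authors aligned read pairs to mm10 with Subread, assigned them with featureCounts and deposited raw counts per gene and cell (versions and use of strand are not given in the sources used here). Of 27179 gene identifiers, 25275 matched RefSeq of GRCm38.p6 (unmatched ones held 1.84% of read pairs). Excluding 15 mitochondrial and 121 ribosomal genes, cells with at least 100000 read pairs and 1500 genes were retained and thinned to 100000 read pairs (random seed 1), with no doublet caller run. Classes came from mean log2(CPM + 10) of marker lists, centred over cells. Exact intervals were Clopper-Pearson, Poisson and conditional binomial. TMM factors came from edgeR 4.0.16 in R 4.3.3, other steps from numpy 2.4.6 and scipy 1.17.1. The ratio and class steps were tested on simulated data. Members, lists and alternatives were chosen with earlier results of these data known, and 4 alternatives after the data were seen. Named pathway genes were those past 2-fold with at least 20 CPM in a stage. For likeness, the 3 genes with the highest Pearson correlation were named for members read in 10% or more of cells, among 7562 genes read as often.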

Additional observations from a re-analysis of the deposited data

Results flagged for a closer look

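The following differences between groups were not tested. Grb14 was higher in luminal progenitor-like than in mature luminal-like cells at puberty (log2 ratio 1.37) and lower in adults (-1.20), and the pubertal value rests on 1 cell with 91.5% of the luminal progenitor-like reads, without which it was -2.09. Grb7 went the other way, at -4.57 at puberty, where the 28 luminal progenitor-like cells had 0 reads (at least 21.2-fold lower, counting 3 reads), and 1.61 in adults, where 1 cell held every luminal progenitor-like read. For the same reason its ratio of puberty over adult was -4.69 in luminal progenitor-like (at least 23.1-fold lower) and 1.5 in mature luminal-like cells, the negative fitted values being set by the CPM added to a level of 0. The ratio of puberty over adult for Igfbp2 was -1.79 in luminal progenitor-like and 1.59 in mature luminal-like cells, where its level was 2.87 CPM at puberty and 0.29 CPM in adults, a single read.

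The 121 cells below the coverage filter, with 4771807 read pairs in all, also held reads of the members: 10482 of Igfbp5, 2338 of Igf1r, 284 of Igfbp2, 124 of Insr, 122 of Grb10, 90 of Irs2, 75 of Grb14 and 15 of Irs1. Igfbp5 made up 2197 CPM of these read pairs and Igf1r 490 CPM.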

How the results depend on the processing

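Of 117 recomputed stage ratios, 44 moved by less than the counting interval, 73 moved further and 0 of those past 2-fold changed sign. Of 180 class ratios 95, 81 and 4 did. The 4 reversals were Irs1 at puberty (2.84, and -1.14 without fibroblast or endothelial marker cells) and Grb10 in adults (-1.39, and 0.90 in cells 48 to 188, 0.74 in clearly classed cells and 2.27 without marker cells). The cause was not tested. Leaving out the highest cell of 1 or both groups compared gave 216 further class and within-class ratios, of which 50 stayed within the counting interval, 159 moved and 7 reversed: Grb7 in basal-like over luminal-like cells at puberty (0.20), Grb14 in luminal progenitor-like over mature luminal-like cells at puberty (-2.09 and -1.88), Grb7 (-3.08 and -1.61) and Irs1 (0.79) in the same comparison in adults, and Irs1 between stages in luminal progenitor-like cells (0.58). In each, a cell left out held most reads of its group. Counts that follow cover all 9 members or all 52 pathway genes, whether or not they reached 20 CPM. Shares over all genes were computed only for genes that reached 20 CPM, so these counts have no share beside them. They list how the counts moved and are not read as results about the members or the pathway. The number of members lower at puberty, 1, was 0 against adult cells 48 to 188, 2 under a stricter cell filter, 2 in luminal-like cells, 2 with pubertal cells 1 to 144 and 3 with 145 to 221. Their median ratio of -0.28 was -0.32 when each stage's highest cell was left out, -0.38 and 0.42 against adult cells 48 to 188 and the others, -0.37 under the stricter filter, -0.40 with TMM scaling (a shift of 0.13 for all genes), -0.25 with another seed, 0.27 and -0.41 in basal-like and luminal-like cells, and -0.43 and 0.19 with pubertal cells 1 to 144 and 145 to 221. Pathway genes higher at puberty, 6, numbered 10 and 13 against the adult sets, 1 with 10 CPM added, 14 in basal-like cells and 11 with pubertal cells 145 to 221, and those lower, 10, numbered 5 with 10 CPM added. Members higher in basal-like cells at puberty, 2, were 1 without the highest cells and 4 with classes from keratins, and those lower, 2, were 1 with TMM, 1 with 10 CPM added and 1 with keratins. In adults the higher member, 1, became 2 without the highest cells, 2 in either adult set, 2 under the stricter filter, 2 in clearly classed cells and 3 without marker cells, and the lower members, 2, became 1 in cells 48 to 188, 5 in the others, 1 with 10 CPM added and 1 without marker cells. Leaving out marker cells, either pubertal range or the highest cell of 1 group was chosen after seeing the data. No paired analysis was possible because the cell numbers shared between stages only name cells. At this depth a gene without reads in a cell may still be expressed. The labels do not link cells to animals or captures, so each stage was treated as 1 sample. Differences between animals or captures cannot be told apart from stage.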
